A study of Macaca mulatta with 4 samples.

Results

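The neuregulins NRG1, NRG2, NRG3 and NRG4 are ligands with an EGF-like domain, and EGFR, ERBB2, ERBB3 and ERBB4 are the receptor tyrosine kinases of the ERBB family. Their UMIs were followed through the cell classes of the fetal rhesus macaque cerebellum, through the stages of the granule and oligodendrocyte lineages, and between Control and LPS fetuses. The genes were chosen by name. Of the 8 symbols, 6 had a row of that symbol among the 30807 genes of the deposited list. NRG3 was taken by its Ensembl identifier, which the gene name table pairs with the symbol, and this brought the genes with values to 7. ERBB3 was not analysed here, because the identifier paired with it carries the symbol RPS26 in the deposited list.

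Neuregulins are made mostly as membrane-bound precursors that proteases cleave, and they act on neighbouring cells. NRG1 and NRG2 bind ERBB3 and ERBB4, NRG3 and NRG4 bind ERBB4, and ERBB2 has no known ligand of its own and signals as the partner of the other receptors. EGFR binds EGF and related ligands. In the developing cerebellum neuregulin of granule cells acts on ERBB4 of the radial glia along which they migrate. Elsewhere in the brain the same signals take part in interneuron development, synapse function and myelination.

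Nuclei came from the flash-frozen cerebellum of 4 fetuses, 2 per group, with 1 library per fetus, so that the fetus was the replicate throughout. The Control fetuses, a female and a male, had no intervention and were taken at 130 days of gestation. The LPS fetuses had bacterial lipopolysaccharide, 1 mg, injected into the amniotic fluid, a model of chorioamnionitis, and the female was taken at 131 days and the male at 133 days. Treatment, the injection itself and the later gestational age of the LPS fetuses cannot be told apart.

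The 32565 nuclei with at least 500 genes fell into 6890 to 9250 per library, with a median of 1882 to 4508 UMIs per nucleus. The libraries differed in ways that the groups do not account for. The median was 4508 and 4063 UMIs in the Control and LPS females and 1882 and 2308.5 in the Control and LPS males. Mitochondrial UMIs made up 0.263 and 0.211% on average in the females and 0.0212 and 0.0315% in the males. Nuclei held 38.7% of all UMIs of the LPS male and 58.7 to 73.9% in the other libraries. In empty droplets, UMIs of the Y-linked gene UTY came from the labelled males, at 358 and 385 CPM, against at most 1.29 CPM in the females. Pairs of libraries shared 16 to 21 cell barcodes, where 7.91 to 11.7 were expected by chance.

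Clusters were named from marker lists, so each name below means a class that resembles that type by its markers. Of the 15 named classes, 12 had at least 10 nuclei in every library and are compared below. The granule lineage, the small excitatory neurons of the cerebellar cortex, held 22469 nuclei, and oligodendrocytes, the myelin-forming cells, held 467. A cluster of 2413 nuclei with few UMIs, 1868 of them from the LPS male, had 9 granule markers raised but stayed unnamed, outside the granule lineage. Levels are given as CPM, the UMIs of a gene summed over the nuclei of a class in a library and scaled to a total of 1000000 UMIs, and they are compared within a gene and not between genes, since counts over exons and introns depend on gene length. Means are over the 4 fetuses with the SD. Droplets also take up free RNA, and its expected contribution was estimated for each class and library from the RNA of empty droplets. The order of classes is a description with no test.

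NRG1 had its highest levels in 4 classes of neurons, while Purkinje cells, the output neurons of the cortex, ranked 11 of the 12 classes at 900.1 ± 227 CPM. NRG1 had its highest mean in Golgi cells, the inhibitory interneurons of the granular layer, at 8570 ± 5042 CPM. The granule lineage followed at 5398 ± 667 CPM, and then molecular layer interneurons, the inhibitory neurons of the outer cortical layer, at 3871 ± 356 CPM and PAX2+ interneurons, their migrating precursors, at 2893 ± 443 CPM. The ranges of the 4 fetuses did not overlap between the granule lineage and molecular layer interneurons, nor between these and PAX2+ interneurons, while the range of Golgi cells spanned that of the granule lineage. The other 8 classes had means of 810 to 1304 CPM with overlapping ranges. Free RNA was expected to give part of the NRG1 in these classes, as shown here for oligodendrocytes and microglia. In Purkinje cells it was estimated at 4.06, 6.69, 3.11 and 14.3% of the UMIs in the Control female, Control male, LPS female and LPS male. In oligodendrocytes it was 15.3, 15.3, 12.2 and 29.7%. In oligodendrocytes NRG1 had 753, 1193, 1009 and 1782 CPM in the Control female, Control male, LPS female and LPS male, where free RNA was expected to give 513, 599, 336 and 1419 CPM. In microglia, the resident macrophages of the brain, it had 580, 1394, 621 and 2621 CPM against 466, 876, 353 and 1533 CPM expected.

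NRG1 differed along the granule stages. Proliferating precursors had 1903 ± 316 CPM and committing granule cells 1599 ± 706 CPM. Migrating granule cells, on their way from the outer to the inner layer, had 9998 ± 1164 CPM, with 10993, 8407, 10723 and 9868 CPM in the Control female, Control male, LPS female and LPS male. Maturing granule cells had 4915 ± 463 CPM and mature granule cells 6057 ± 1371 CPM. All 4 migrating values lay above all values of the other 4 stages. The stage joins granule clusters 3 and 6, and the name rests on firmer ground in cluster 3. Cluster 6 had 5 of 6 migrating markers raised, but its 10 leading genes held none of them and held CNTN2, a marker of the maturing list. In cluster 3 alone NRG1 had 10483, 8329, 10150 and 9894 CPM, also above all values of the other stages. The name of the mature stage is less firm in granule cluster 1, which holds 4146 of its 6265 nuclei. There 3 of 6 mature markers were raised, and the 10 leading genes held none of them.

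Golgi cells showed the widest spread of NRG1 between fetuses. NRG1 had 10744 CPM in the Control female, 7351 in the Control male, 13992 in the LPS female and 2193 in the LPS male. The LPS male was thus the lowest and the LPS female the highest, and the groups overlapped. Both females lay above both males, as did 21.4% of all genes tested in Golgi cells. The difference between LPS and Control came to a log2 fold change of -0.11 with a standard error of 1.07. The median nucleus of the class held 6037, 6322, 13563 and 922 CPM in the same order, so the low value of the LPS male was not carried by a few nuclei. All 10 Golgi markers were detected in the LPS male, but their summed level there was 4799 CPM against 9205 to 16285 CPM in the other libraries. SGCZ, the most abundant of these markers in 3 of the libraries, was at 519 CPM against 3082 to 7800. GAD1, the enzyme that makes GABA, was at 643 CPM against 641 to 687, and LGI2 at 29.3 CPM against 24.4 to 55.3. Every other marker of the list was lowest in the LPS male, among them SLC6A5 at 102 CPM against 221 to 352. GRM3 was at 378 CPM there against 841 to 1939. The part of class make-up in the NRG1 value was not tested.

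NRG2, a ligand close to NRG1, was also highest in 4 classes of neurons, of which Purkinje cells were one. Golgi cells had 330 ± 33.1 CPM, Purkinje cells 326 ± 95.5 CPM and molecular layer interneurons 291 ± 32.9 CPM, and the granule lineage had 229 ± 51.0 CPM. The ranges of neighbouring classes among these 4 overlapped, and all of them lay above the range of oligodendrocytes, which came next at 148 ± 34.8 CPM. PAX2+ interneurons came after oligodendrocytes, astrocytes and Bergmann glia, at 128 ± 50.4 CPM, with a range that overlapped theirs. Endothelial stalk cells and fibroblasts had the lowest means, both 61.0 CPM. Along the granule stages NRG2 stood at 44.9 ± 17.4 CPM in proliferating precursors, 38.5 ± 29.7 in committing, 82.4 ± 12.5 in migrating, 297 ± 28.9 in maturing and 354 ± 39.02 CPM in mature granule cells. Its levels in maturing and mature cells lay above every value of the earlier stages in all 4 fetuses. NRG1 therefore had its highest stage mean in migrating cells and NRG2 in mature cells.

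NRG3, a neural ligand of ERBB4, was detected at low levels. Among the compared classes its highest means were in astrocytes, Bergmann glia and proliferating glia. Astrocytes had 70.2, 57.1, 72.8 and 52.4 CPM in the Control female, Control male, LPS female and LPS male, with a mean of 63.1 ± 9.91 CPM. Every astrocyte value lay above those of Bergmann glia, the radial glia of the cortex, which had 32.7 ± 1.40 CPM. Proliferating glia had 22.8 ± 10.5 CPM and the remaining 9 classes had means of 2.26 to 17.3 CPM. Among the granule stages NRG3 stood at 2.37 to 3.28 CPM on average in the first 3 stages, where free RNA was expected to give 1.203 to 2.48 CPM. Maturing and mature granule cells had 12.4 ± 2.77 and 11.01 ± 2.80 CPM.

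NRG4, a ligand of ERBB4 known best as a secreted factor of fat tissue, was sparse. The granule lineage had the highest mean, 53.5 ± 35.1 CPM, and the means of the other 11 classes lay between 10.3 and 28.0 CPM. In the granule lineage NRG4 rested on 977, 390, 954 and 1448 UMIs, with at most 8 in any nucleus. Proliferating precursors had 21.3 ± 16.7 CPM, committing cells 9.59 ± 5.76 and migrating cells 9.01 ± 5.58 CPM. Maturing cells had 59.4 ± 30.1 and mature cells 88.6 ± 39.6 CPM. In each of the 4 fetuses the maturing and mature stages held more NRG4 than the 3 earlier stages.

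**Figure D1:**
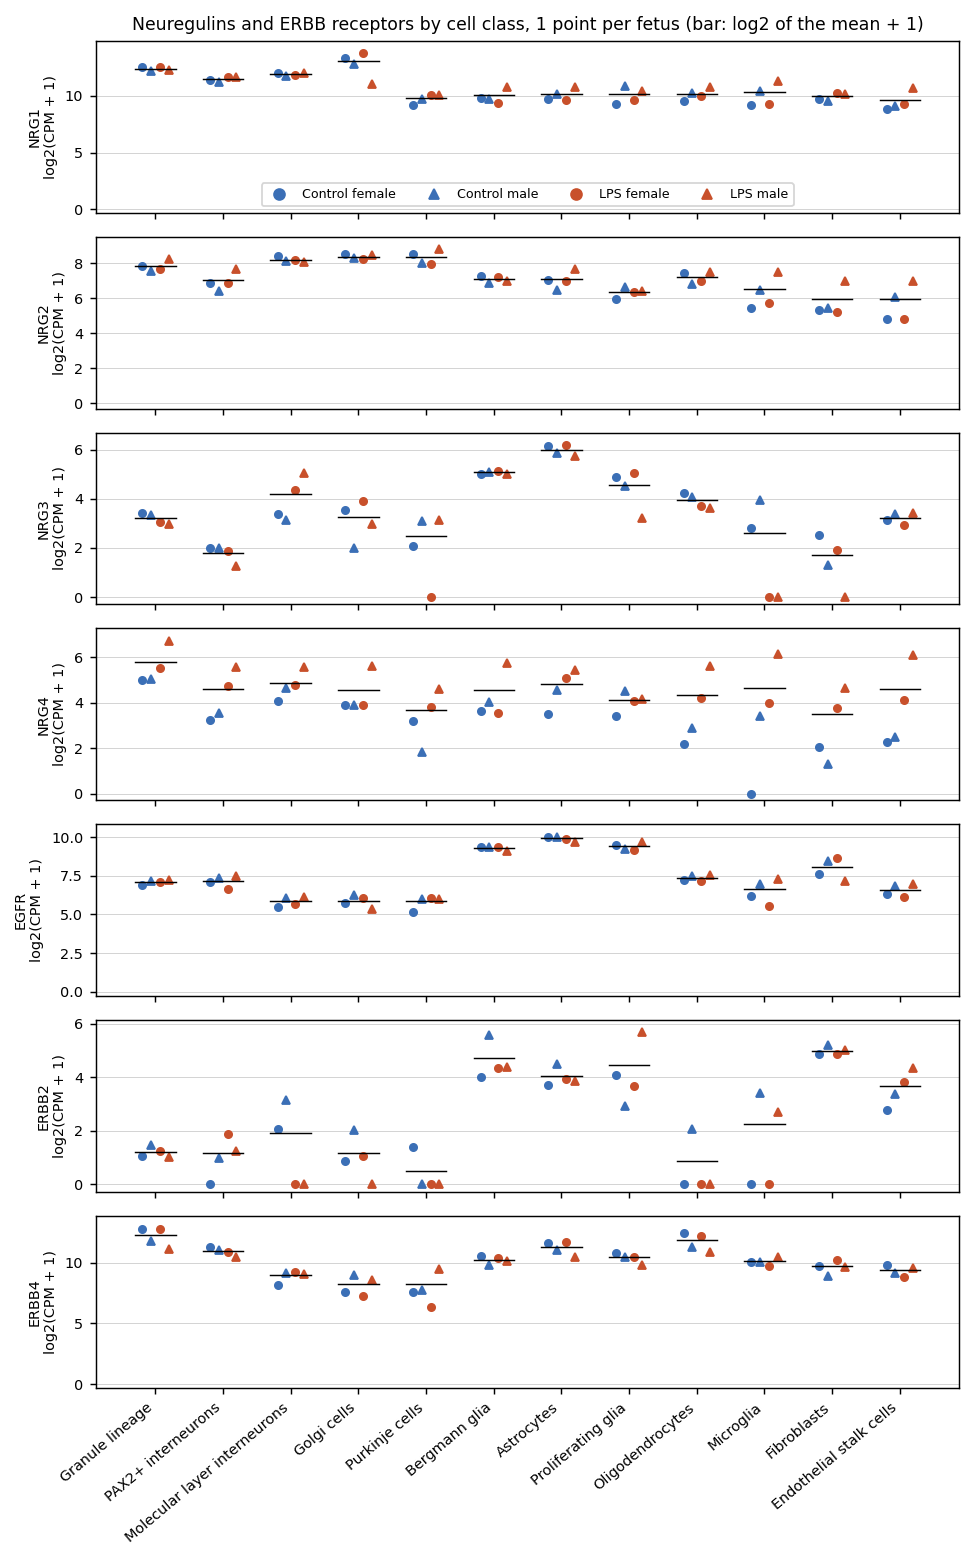
Level of each gene in the 12 compared classes, as log2(CPM + 1) on the y axis, with 1 point per fetus (blue, Control; red, LPS; circles, female; triangles, male) and a black bar at the log2 of the mean CPM plus 1. NRG1 and NRG2 were highest in neurons, and NRG3 and EGFR in astrocytes. ERBB2 had its highest means in fibroblasts, Bergmann glia, proliferating glia and astrocytes. ERBB4 was highest in the granule lineage and oligodendrocytes, with the 2 males below the 2 females.

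EGFR, the receptor of EGF, was carried by the astroglial classes. Astrocytes had 1051, 1034, 967 and 841 CPM in the Control female, Control male, LPS female and LPS male, a mean of 973 ± 95.0 CPM. Every astrocyte value lay above those of proliferating glia, at 677 ± 109 CPM, and of Bergmann glia, at 627 ± 52.2 CPM, and the ranges of the latter classes overlapped. Fibroblasts had 272 ± 122 CPM, oligodendrocytes 164 ± 23.5 CPM and the granule lineage 135 ± 12.5 CPM. Golgi cells, molecular layer interneurons and Purkinje cells had the lowest means, 57.3 to 58.8 CPM. Granule precursors and young granule cells held more EGFR than mature ones. The stage means were 191 ± 24.6 CPM in proliferating, 167 ± 18.6 in committing, 221 ± 61.2 in migrating, 169 ± 64.3 in maturing and 53.3 ± 8.001 CPM in mature cells, and every mature value lay below every value of the other 4 stages. EGFR in the granule lineage was above the 24.6 to 39.9 CPM expected from free RNA.

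ERBB2, the receptor that acts as a partner of the others, was found in few UMIs. Fibroblasts had 28.4, 35.6, 28.3 and 31.9 CPM in the Control female, Control male, LPS female and LPS male, with a mean of 31.0 ± 3.48 CPM. Bergmann glia had 25.3 ± 14.7 CPM, where the Control male stood apart at 47.2 CPM from 15.3 to 19.7 CPM in the others. Proliferating glia had 21.3 ± 19.8, astrocytes 15.4 ± 4.27 and endothelial stalk cells 11.9 ± 5.76 CPM. Neighbouring classes in this order overlapped in their ranges. In the granule lineage ERBB2 had 1.05, 1.73, 1.38 and 1.02 CPM, where free RNA was expected to give 0.856, 1.35, 0.653 and 1.35 CPM. In oligodendrocytes it was at 0 in 3 libraries and at 3.22 CPM, from 1 UMI, in the Control male. With 3 UMIs as the floor for a count of 0, these 3 libraries allow up to 3.52, 5.23 and 3.81 CPM in the Control female, LPS female and LPS male, and the floor covers counting error only.

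ERBB4, the receptor that binds all 4 neuregulins, was highest in the granule lineage and the oligodendrocytes. The granule lineage had 7137 CPM in the Control female, 3504 in the Control male, 7064 in the LPS female and 2262 in the LPS male. Oligodendrocytes had 5582, 2531, 4599 and 1845 CPM in the same order. Within each of these classes both females lay above both males, whatever the treatment. Astrocytes had 2479 ± 890, PAX2+ interneurons 1980 ± 453 and Bergmann glia 1215 ± 257 CPM. Golgi and Purkinje cells had the lowest means, 307 ± 162 and 297 ± 278 CPM. In Golgi cells ERBB4 had 196, 499, 152 and 383 CPM, and free RNA was expected to give 367, 362, 250 and 352 CPM. The 4 values of Golgi cells thus fell on both sides of the level expected from free RNA.

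ERBB4 was higher in the migrating and maturing stages than in the earlier ones. Proliferating and committing granule cells had 1650 ± 467 and 1457 ± 287 CPM of ERBB4. Migrating cells had 8454 ± 3840 CPM, with 12028, 5705, 11475 and 4609 CPM in the Control female, Control male, LPS female and LPS male. Maturing cells had 7394 ± 3862 and mature cells 3241 ± 1421 CPM. The order of the migrating and maturing stages rested on granule cluster 6, whose leading genes do not bear out its name as migrating. In granule cluster 3, the other migrating cluster, ERBB4 had 8643, 4329, 8314 and 3478 CPM, against 10887, 4680, 10531 and 3478 CPM in the maturing stage. Without cluster 6 the maturing stage was thus the higher one in 3 fetuses and level in the LPS male. The highest levels of the granule clusters were in cluster 6, with 16841, 7652, 16113 and 6199 CPM, and granule cluster 5, of the maturing stage, with 16798, 6772, 16143 and 5270.4 CPM. ERBB4 was among the 10 leading genes of both clusters. The genes followed here were left out of the features used for clustering, so ERBB4 took no part in forming them.

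**Figure D2:**
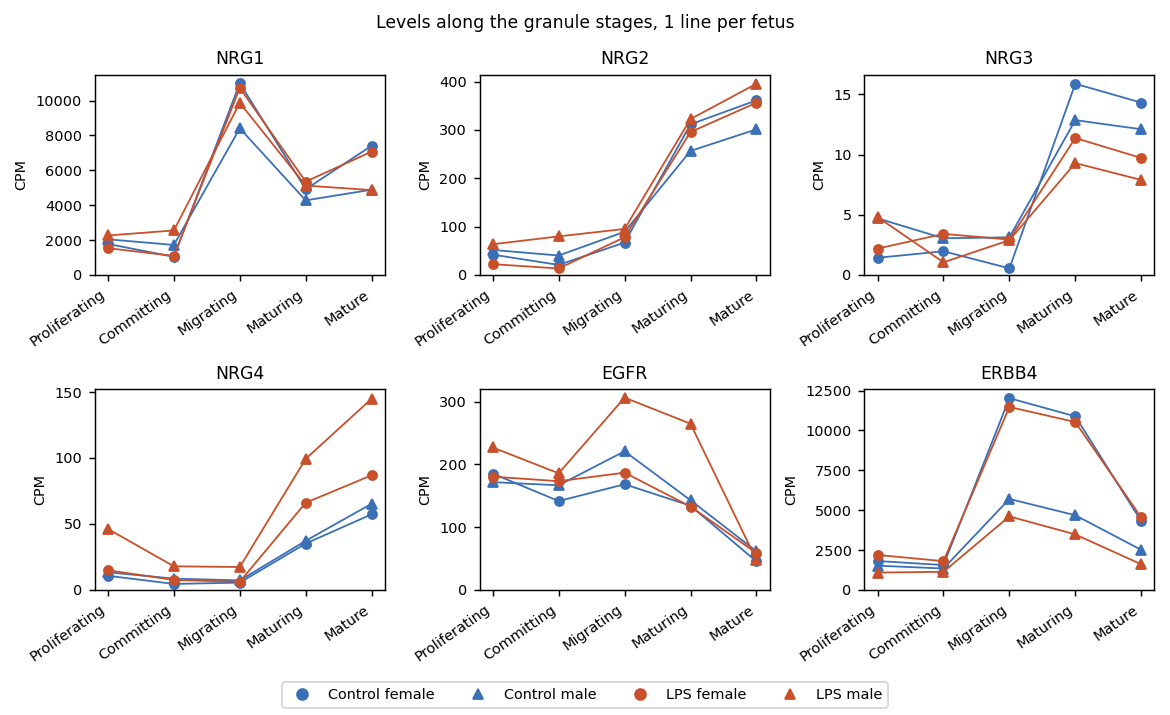
CPM of 6 genes (y axis) along the 5 granule stages (x axis), with 1 line per fetus (blue, Control; red, LPS; circles, female; triangles, male). NRG1 peaked in migrating cells, and ERBB4 was higher in migrating and maturing cells than in the earlier stages. The order of these stages for ERBB4 rested on 1 of the 2 migrating clusters. NRG2 and NRG4 had their highest means in mature cells, and EGFR was lowest in mature cells.

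In the oligodendrocyte lineage ERBB4 was present from the precursors on. Proliferating precursors had 3358, 2321, 3462 and 1807 CPM in the Control female, Control male, LPS female and LPS male. Oligodendrocyte precursor cells had 5628, 2565, 4742 and 2932 CPM, and premyelinating cells 5689.5, 1621, 4444 and 2095 CPM. Mature oligodendrocytes had 7255, 5006, 4074 and 1222 CPM, from 11, 5, 9 and 57 nuclei. The stages overlapped, and the mature stage ran from the highest to the lowest value of the lineage. EGFR had its highest mean of the lineage, 297 ± 53.0 CPM, in oligodendrocyte precursor cells, with 252 CPM in both Controls, 333 in the LPS female and 352 in the LPS male. Premyelinating cells had 56.5, 112, 36.5 and 148 CPM and mature oligodendrocytes 129, 96.3, 60.3 and 41.6 CPM of EGFR. Precursor cells lay above these later stages in all 4 fetuses. ERBB2 had no UMI in the premyelinating and mature stages.

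**Figure D3:**
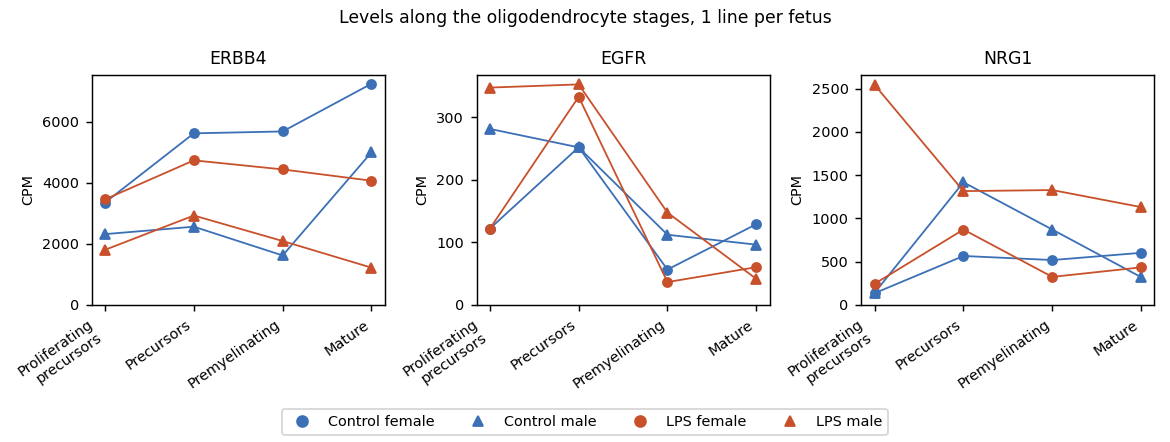
CPM of ERBB4, EGFR and NRG1 (y axes) along the 4 named oligodendrocyte stages (x axis), with 1 line per fetus (blue, Control; red, LPS; circles, female; triangles, male). EGFR was lower in the premyelinating and mature stages than in the stage of non-proliferating precursors in every fetus, and ERBB4 of the mature stage ran from 1222 CPM in the LPS male to 7255 CPM in the Control female.

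To determine whether the genes differed between LPS and Control, the UMIs of each class, stage and large granule cluster were summed per fetus and tested with edgeR. A call needed an adjusted p under 0.1 together with a log2 fold change beyond 0.25 in either direction. None of the 117 tests of the 7 genes in 22 such comparisons passed. The same held for every gene in the edgeR tests, with 0 calls in 202990 and a percent called of 0 in each comparison, while DESeq2 gave 7 calls, none of them on these genes. At an unadjusted p under 0.05, edgeR had 963 tests of all genes, or 0.474%, and 8 of the 117. All 8 were on NRG4. They are not separate results, since 5 of them, on all nuclei, the granule lineage, its maturing and mature stages and granule cluster 1, share nuclei of the granule lineage, and the nuclei of the other 3, on PAX2+ interneurons, astrocytes and oligodendrocytes, are part of all nuclei. The fit without a block counts differences between females and males as spread within the groups. With sex as a block, 2.99% of all tests and 12 of the 117 had an unadjusted p under 0.05 (edgeR). With 2 fetuses per group the count of 0 calls does not show that the groups were alike.

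NRG4 was higher in both LPS fetuses than in both Controls in the granule lineage. It had 31.2 CPM in the Control female, 32.2 in the Control male, 45.3 in the LPS female and 105 in the LPS male. The Controls lay close together and the LPS male stood apart. The log2 fold change was 1.25 with a standard error of 0.48 (unadjusted p = 0.0499, adjusted p = 1.00, edgeR). Of the 14926 genes tested in this class, 0.188% had an unadjusted p under 0.05, and 7.18% had both LPS libraries above both Controls. Without the LPS male the log2 fold change was 0.52. The libraries differed in their mix of stages. Mature cells, the stage with the highest NRG4, were 1787 of 6844 granule nuclei in the Control female, 1354 of 6097 in the Control male, 1008 of 5137 in the LPS female and 2116 of 4391 in the LPS male. The part of this mix in the value of the class was not tested beyond the values within stages. The free RNA of the libraries, taken from barcodes with at most 100 UMIs, held 30.8, 33.6, 30.5 and 83.2 CPM of NRG4 in the same order, and was thus also highest in the LPS male. From it 4.28, 5.38, 4.14 and 18.9 CPM were expected in the granule lineage, and with free RNA subtracted the log2 fold change was 1.34.

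Within the granule stages the groups were apart in 3 and overlapped in 2. Proliferating precursors had 10.7, 13.3, 14.9 and 46.2 CPM in the Control female, Control male, LPS female and LPS male, with a log2 fold change of 1.32 and a standard error of 0.63, where 7.81% of all genes tested had both LPS libraries above both Controls. Maturing granule cells had 35.1, 37.2, 66.1 and 99.3 CPM in the Control female, Control male, LPS female and LPS male, with a log2 fold change of 1.17 and a standard error of 0.33. Mature granule cells had 57.3, 65.3, 86.9 and 145 CPM, with 0.89 and a standard error of 0.34. Both LPS values lay above both Control values in each stage, where 8.74% and 8.46% of all genes tested did so. Committing cells had 4.49, 8.52, 7.5004 and 17.8 CPM and migrating cells 5.46, 7.14, 6.11 and 17.3 CPM in the same order. In both of these stages, and in granule cluster 4 with 59.8, 71.8, 70.7 and 152 CPM, the LPS female lay between the Controls and only the LPS male stood above them. Free RNA was estimated at 14.4, 13.1, 13.7 and 23.8% of the UMIs of committing cells in the same order. For migrating cells it was 10.35, 13.6, 11.5 and 20.3%. The free RNA of the LPS male held the most NRG4, as given above, and its part in these values was not tested. In granule cluster 3 alone, without the less certain cluster 6, the migrating values were 3.41, 3.81, 4.94 and 11.1 CPM, from 11, 5, 12 and 9 UMIs. The groups did not overlap there, but the cluster was not tested and has no share of all genes to set against this. Free RNA was estimated at 11.2, 14.1, 12.04 and 20.96% of its UMIs in the same order. With the NRG4 of free RNA given above, such shares exceed the values of both males, so these values are not read as a difference between the groups.

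Across the classes NRG4 passed the filter on low counts in 6 of 12. A class could pass through its LPS libraries alone, so the number of these classes with NRG4 higher in LPS is not read as a result. The fold change in PAX2+ interneurons, from few UMIs, is not read as a difference between the groups either. Among the 6, the groups overlapped in Bergmann glia, where the LPS female had 10.7 CPM against 11.6 and 15.5 CPM in the Controls. Golgi cells had 13.8, 13.7, 14.1 and 48.3 CPM in the Control female, Control male, LPS female and LPS male, so that the LPS female and both Controls differed by less than 1 CPM. Both LPS libraries lay above both Controls for 7.18% of all genes tested in the granule lineage, 9.49% in PAX2+ interneurons, 8.54% in Golgi cells, 9.9% in astrocytes and 11.7% in oligodendrocytes. PAX2+ interneurons had 8.54, 10.8, 25.5 and 47.1 CPM, from 11 to 34 UMIs, with a log2 fold change of 1.88 and a standard error of 0.50, or 1.24 with called doublets removed. Astrocytes had 10.3, 22.4, 32.8 and 42.4 CPM, with 1.23 and a standard error of 0.48 (unadjusted p = 0.0403, edgeR). With DESeq2, called doublets removed or free RNA subtracted, none of the genes followed here had an unadjusted p under 0.05 in astrocytes. With RLE size factors, no filter, sex as a block, at least 1000 genes or the study's number of nuclei, 1 of them did. The expected free RNA came to 21.7 of the 47.1 CPM of the LPS male in PAX2+ interneurons and to 24.2 of its 42.4 CPM in astrocytes.

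In oligodendrocytes NRG4 rested on few UMIs. There were 3, 2, 10 and 38 UMIs of NRG4 in the Control female, Control male, LPS female and LPS male, which gave 3.52, 6.43, 17.4 and 48.3 CPM. Both LPS fetuses lay above both Controls, and the LPS male held most of the UMIs. NRG4 came through the filter here by its LPS libraries, the group where it was higher, so the fold changes and p-values below describe these libraries and are not read as a difference between the groups. The log2 fold change was 2.80 with a standard error of 0.81 (unadjusted p = 0.00669, adjusted p = 1.00, edgeR), and 0.955% of the 8064 genes tested had an unadjusted p under 0.05. With sex as a block the log2 fold change was 2.54 and the adjusted p 0.0753, under the threshold. Without the LPS female it was 3.28 with an adjusted p of 0.0743, also under it, and without the LPS male it was 1.93. With called doublets removed it was 4.65 and did not pass. Expected free RNA was 4.71, 5.15, 3.72 and 24.7 CPM, so that both Control values lay close to it, and after its subtraction NRG4 had too few counts for the filter. The same held without the unnamed cluster described next. The granule marker list summed to 7777, 5193, 7870.5 and 7820.5 CPM in these oligodendrocytes, with none of its 17 genes at 0. Of the 38 UMIs of the LPS male, 12 came from a small unnamed cluster with granule markers, in which 35.9% of the nuclei were called doublets. Mature oligodendrocytes held 0, 0, 1 and 11 UMIs and premyelinating cells 0, 0, 3 and 7. Oligodendrocyte precursor cells, the largest stage, held 1, 2, 2 and 0 UMIs, or 3.23, 18.7, 12.1 and 0 CPM, so that there the LPS male was the lowest and the mean of the Controls, 10.9 CPM, lay above that of LPS, 6.05 CPM. The parts of free RNA and of such nuclei in the difference were not tested further. Among the classes that did not reach the filter, NRG4 in microglia had 0, 2, 4 and 13 UMIs and in endothelial stalk cells 2, 1, 5 and 7 UMIs. In the fit without the filter the log2 fold changes were 3.24 and 2.96 there and 2.84 in oligodendrocytes. That of microglia rests on a Control library without a UMI and depends on the prior count. Of the other classes below the filter, fibroblasts had 2.64, Purkinje cells 1.39, molecular layer interneurons 0.87 and proliferating glia 0.07. In proliferating glia the groups overlapped, with 9.69, 21.96, 15.9 and 16.8 CPM in the Control female, Control male, LPS female and LPS male.

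**Figure D4:**
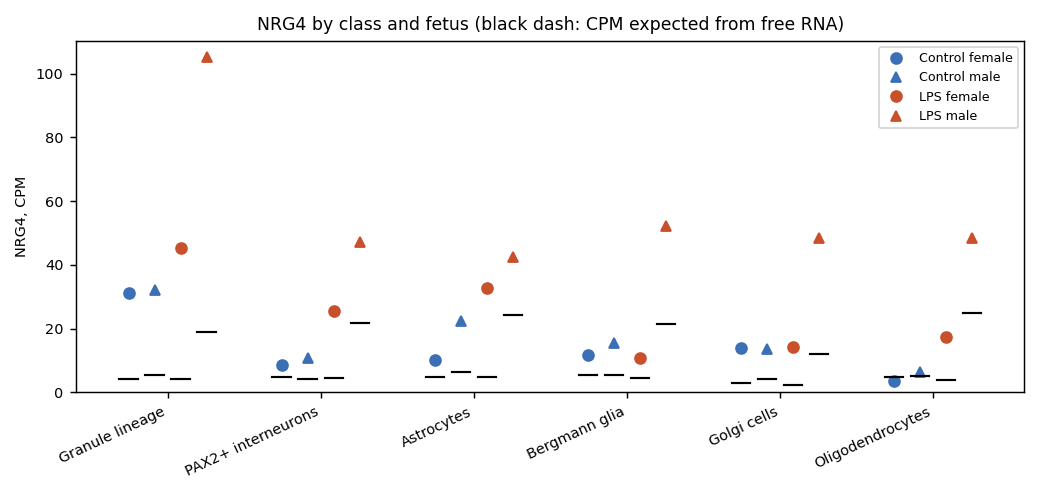
NRG4 in CPM (y axis) for each fetus in the 6 classes where it passed the filter (blue, Control; red, LPS; circles, female; triangles, male), with a black dash at the CPM expected from free RNA. The LPS male was highest in each class, and both Control values of oligodendrocytes lay near the dash.

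No other ligand had an unadjusted p under 0.05 in any comparison in the fit without a block. With sex as a block, NRG1 in endothelial stalk cells had an unadjusted p of 0.0217 and NRG2 in PAX2+ interneurons one of 0.0333 (edgeR), and neither passed after adjustment. NRG1 in the granule lineage had 6046, 4620.3, 5851 and 5073 CPM in the Control female, Control male, LPS female and LPS male, with overlapping groups and a log2 fold change of 0.03 (standard error 0.40). Both LPS libraries lay above both Controls for NRG1 in 4 of the 12 classes, which were PAX2+ interneurons, Purkinje cells, fibroblasts and endothelial stalk cells. Of all genes tested in these classes, 9.49, 11.1, 13.9 and 8.87% were separated in this way. The NRG1 log2 fold changes there were 0.35 ± 0.34, 0.55 ± 0.60, 0.57 ± 0.29 and 1.14 ± 0.51 (standard errors). Purkinje cells had 606, 840, 1097 and 1059 CPM of NRG1 in the Control female, Control male, LPS female and LPS male, the last from 18 nuclei. Free RNA was estimated at 14.3% of their UMIs in the LPS male and at 3.11 to 6.69% in the other libraries. Its part in the separation of NRG1 in Purkinje cells was not tested. In endothelial stalk cells NRG1 had 450.4, 559.7, 614 and 1616 CPM, against 552, 674, 161 and 818 CPM expected from free RNA, so the Controls did not exceed it. Without the LPS male the log2 fold change of NRG1 there was 0.38, and without the LPS female 1.62. NRG2 was separated in PAX2+ interneurons, with 114, 84.5, 114 and 201 CPM in the same order, but the LPS female and the Control female differed by less than 1 CPM.

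NRG3 was tested in 5 classes, and in the granule lineage and oligodendrocytes it was lower in both LPS fetuses than in both Controls. A class could pass the filter through its Control libraries alone, so the number of such classes is not read as a result. The granule lineage had 9.84, 9.09, 7.36 and 6.97 CPM in the Control female, Control male, LPS female and LPS male, with a log2 fold change of -0.40 (standard error 0.38). Of all genes tested there, 5.04% had both LPS libraries below both Controls. Oligodendrocytes had 17.6, 16.1, 12.2 and 11.4 CPM, with a log2 fold change of -0.54 (standard error 0.72), and 9.77% of all genes tested were separated in this direction. These values rested on 15, 5, 7 and 9 UMIs. NRG3 came through the filter in oligodendrocytes by its Control libraries, the group where it was higher. Its fold change and p-value there are therefore not read as a difference between the groups. Within the 4 named stages the groups overlapped, and in oligodendrocyte precursor cells, with 22.6, 9.33, 24.2 and 17.2 CPM, the mean of LPS was the higher one. Mature oligodendrocytes, the stage with the lowest NRG3 mean, were 11 of 125 nuclei in the Control female, 5 of 96 in the Control male, 9 of 88 in the LPS female and 57 of 158 in the LPS male. The part of this mix was not tested. The separation was also found in maturing granule cells, with 15.9, 12.9, 11.4 and 9.29 CPM and a log2 fold change of -0.49 (standard error 0.43), against 5.61% of all genes tested. It was found again in mature granule cells, with 14.3, 12.1, 9.72 and 7.89 CPM and -0.61 (standard error 0.44), against 5.7%. The unadjusted p-values of these 4 edgeR tests were 0.341, 0.472, 0.301 and 0.218.

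Among the receptors, EGFR in astrocytes was lower in both LPS fetuses, at 967 and 841 CPM against 1051 and 1034 in the Controls. The log2 fold change was -0.21 with a standard error of 0.37, and 8.22% of all genes tested in astrocytes had both LPS libraries below both Controls. Bergmann glia had 659, 654, 647 and 549 CPM in the Control female, Control male, LPS female and LPS male, a log2 fold change of -0.13 with a standard error of 0.35, where 7.64% of all genes were so separated. Oligodendrocyte precursor cells went the other way, with LPS values of 333 and 352 CPM above the 252 CPM of both Controls. There the log2 fold change was 0.45 with a standard error of 0.36, and 11.8% of all genes tested had both LPS libraries above both Controls. EGFR in committing granule cells was also higher in both LPS fetuses, with means of 179 CPM in LPS and 154 CPM in Control. The log2 fold change there was 0.24 with a standard error of 0.25, where 8.68% of all genes tested were so separated. ERBB2 was tested in 4 classes and its groups overlapped in all of them.

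**Figure D5:**
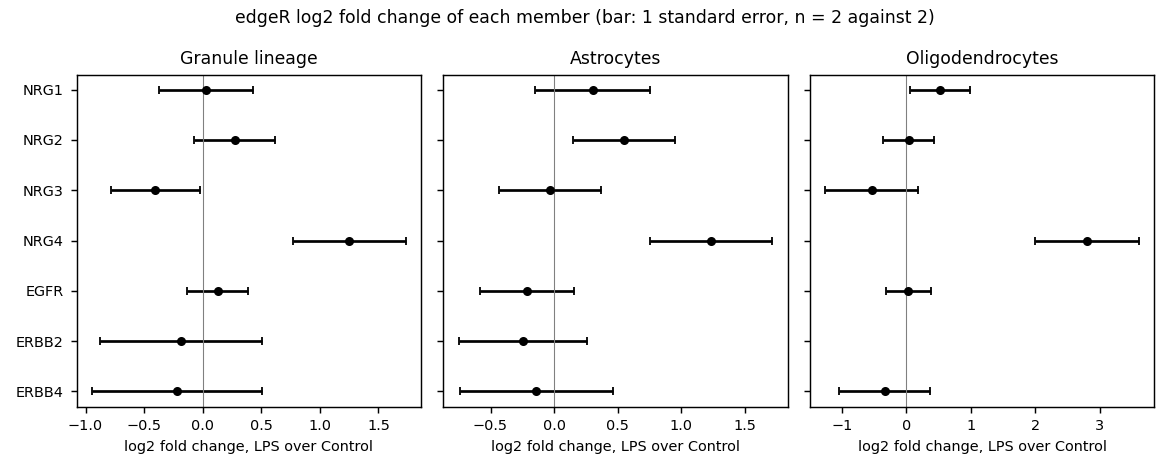
edgeR log2 fold change of LPS over Control (x axis) for each gene that passed the filter in the granule lineage, astrocytes and oligodendrocytes, with a bar of 1 standard error and 2 fetuses per group. NRG4 lay at 1.25 in the granule lineage and at 1.23 in astrocytes. Its 2.80 in oligodendrocytes, where it passed the filter by its LPS libraries, is not read as a difference between the groups. Nor is the value of NRG3 in oligodendrocytes, where NRG3 passed the filter by its Control libraries. The bars of NRG1 and ERBB4 crossed 0 in the granule lineage.

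ERBB4 in the granule lineage and in oligodendrocytes lay apart by sex and not by group. In the granule lineage the log2 fold change of LPS over Control was -0.22 with a standard error of 0.73, and in oligodendrocytes it was -0.34 with a standard error of 0.70. Within the females the log2 ratio of LPS over Control in the granule lineage was -0.01 and within the males -0.63. The lowest female value was 2.02 times the highest male value in the granule lineage and 1.82 times in oligodendrocytes. Of all genes tested, 30.7% had both females above both males in the granule lineage and 21.7% in oligodendrocytes, a further 37.6 and 35.6% had them below, and for 11.2 and 6.01% the ratio was at least 1.5. Both females were above both males for ERBB4 in 5 of the 12 classes, which were the granule lineage, Bergmann glia, astrocytes, oligodendrocytes and fibroblasts, and below them in Golgi and Purkinje cells. In Bergmann glia, astrocytes and fibroblasts 22.9, 21.7 and 21.7% of all genes tested had both females above both males, and in Golgi and Purkinje cells 42.7 and 34.9% had them below. The males also had the lower UMI medians and the lower mitochondrial shares, and with 2 fetuses of each sex, sex and library quality cannot be told apart. Against LPS, ERBB4 was below both Controls in PAX2+ interneurons, with 2518, 2075, 1907 and 1421 CPM in the Control female, Control male, LPS female and LPS male, where 9.2% of all genes tested were so separated. The log2 fold change was -0.47 with a standard error of 0.36, and with sex as a block it was -0.48 with an unadjusted p of 0.0193 (edgeR), which did not pass after adjustment. It was also below them in proliferating glia, where 11.6% were. In mature oligodendrocytes, given above, both LPS values also lay below both Controls, from too few nuclei for a test.

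The partners of these receptors did not pass the test either. A list of 81 genes, with other EGF-family ligands, ligand-cleaving proteases, adaptors, the PI3K, MAP kinase, PLC, SRC and STAT branches, negative regulators and membrane scaffolds, had 73 genes in the deposited list. None of their 1252 tests passed, and 4 had an unadjusted p under 0.05, a lower share than the 0.474% of all tests. In the granule lineage 71 were tested, of which 26 had a positive and 45 a negative log2 fold change, with a median of -0.06 against 0.01 over all genes tested. In oligodendrocytes 51 were tested, 24 positive and 27 negative, with a median of -0.02 against 0.01. PIK3R1, the regulatory subunit of PI3K, had the lowest unadjusted p of the list in the granule lineage, 0.133, with 26.5, 24.8, 28.1 and 68.3 CPM in the Control female, Control male, LPS female and LPS male. Only the LPS male stood apart. CSPG5, also called neuroglycan C, a proteoglycan with an EGF-like domain that binds ERBB receptors, had the lowest unadjusted p in oligodendrocytes, 0.1003, with 48.2, 61.1, 31.4 and 28.0 CPM. There both LPS values lay below both Controls, as for 9.77% of all genes tested. CSPG5 was among the 10 leading genes of oligodendrocyte precursor cells, which were 62 of 125, 44 of 96, 38 of 88 and 37 of 158 nuclei of the class in the same order, and the part of this mix was not tested. The 4 tests under 0.05 were MAGI2 and LRIG3 in fibroblasts, with log2 fold changes of 0.93 and -0.93, and TMEFF2 and DLG2 in microglia, with 1.77 and 1.03. TMEFF2 in microglia had 51.4, 57.3, 90.3 and 266 CPM and DLG2 90.7, 100.3, 166 and 206 CPM in the same order, with the LPS male highest. The granule marker list summed to 2378, 3600, 2299 and 8557 CPM in these microglia and free RNA was estimated at 13.9, 22.4, 12.8 and 32.1% of their UMIs, and its part in these values was not tested. Of all genes tested, 1.85% in fibroblasts and 1.18% in microglia had an unadjusted p under 0.05. MAGI2 and DLG2 are membrane scaffolds, LRIG3 belongs to a family of ERBB regulators and TMEFF2 is a membrane protein with an EGF-like domain.

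The genes most alike to each member across classes were taken from Pearson's r of log2(mean CPM + 1) over the 15 named classes, among 8074 genes. These values come from the same nuclei and libraries and describe the pattern only. NRG1 was most like GLRA2, a glycine receptor subunit, XKR4 and SPOCK1, with r of 0.904, 0.895 and 0.894. NRG2 was most like KCNIP4, a potassium channel interacting protein, SCN2A, a neuronal sodium channel, and SPTBN4, with 0.932, 0.929 and 0.929. NRG3 came nearest to a gene without a symbol and to MMD2, with 0.917 and 0.859. NRG4 was most like OTOF, SLC47A2 and GCNT1, with 0.946, 0.919 and 0.898, in a pattern led by choroid or ependymal cells. EGFR was most like CTNNA3, SLC4A4, the bicarbonate cotransporter of astrocytes, and EDNRB, with 0.914, 0.904 and 0.904. ERBB2 was most like LAMB2, a laminin of basement membranes, and YAP1, with 0.961 and 0.952. ERBB4 was most like EPB41L4A, FNBP1 and ITGB8, with 0.894, 0.856 and 0.853.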

How the data were processed

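Single-nucleus RNA-seq libraries of 4 fetal cerebella were grouped by the treatment in their labels, with the fetus as the replicate. The authors made the deposited counts with Cell Ranger (version 5.0 in the study's methods, 4 in the submitters' processing notes) on the macaque genome Mmul_8.0.1, introns included. The deposited values are whole-number UMI counts per gene and barcode, neither normalized nor filtered, and the ambient RNA removal of the study is not in them. Total UMIs per library were 34282015 to 61665690.

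A barcode was kept from 500 genes on if mitochondrial UMIs made up no more than 5%. They were integrated with Seurat 5.3.0 in R 4.3.3 (2000 variable features, 30 dimensions, resolution 0.5), and granule and oligodendrocyte nuclei were clustered again. A cluster took the class with the highest marker score if at least 3 markers were raised. It stayed unnamed if over 50% of its nuclei were called doublets (1 cluster, 77.7%), or if its UMIs were low for its libraries with no marker among its leading genes (1 cluster of the 23, at 0.316 of the library median). Names rebuilt in this way may differ from those of the study. Doublets were called with Scrublet in scanpy 1.11.5 and kept, except in an alternative. In the LPS male the automatic threshold marked 0.0256% of nuclei, so the median threshold of the others was used there. The free RNA profile came from barcodes with at most 100 UMIs, and the free share of a class from the 0.25 quantile of the ratio of other classes' markers in the class to that profile.

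UMIs were summed per class and fetus and compared by edgeR 4.0.16 with its quasi-likelihood test (filterByExpr, TMM, LPS against Control, Benjamini-Hochberg over all genes of a comparison), for classes and stages with at least 10 nuclei in every library. The code was tested on simulated data. Alternatives were DESeq2 1.42.0, RLE size factors, no filter, a block by sex, doublets removed, at least 1000 genes, the study's numbers of nuclei, free RNA subtracted, and each fetus left out. Tables were handled in Python 3.11.15 with NumPy 2.4.6, pandas 2.3.3 and SciPy 1.17.1.

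The labels number no replicates, and fetuses of the same sex are not the same animal. By rule all members, the pathway gene with the lowest p in the granule lineage and in oligodendrocytes, and the 3 genes most alike to each member were named, apart from 2 that are not reported here. The 4 pathway genes at an unadjusted p under 0.05 were named after their values were seen. The genes, lists and comparisons were chosen with earlier results of these data known. Several of them stand in the study's own gene lists from these samples and are not independent evidence. P-values measure the spread between fetuses, and intervals and floors cover counting error only. No sequences are given.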

Additional observations from a re-analysis of the deposited data

Results flagged for a closer look

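ERBB4 in Purkinje cells and EGFR in fibroblasts had within-sex ratios of LPS over Control that pointed in opposite directions and were at least 1 on the log2 scale in size. Neither difference was tested. ERBB4 in Purkinje cells had 188 CPM in the Control female, 211 in the Control male, 82.5 in the LPS female and 706 in the LPS male, from 32, 56, 25 and 18 nuclei and 117, 83, 38 and 90 UMIs. Its log2 ratio was -1.19 between the females and 1.74 between the males. Free RNA was expected to give 163, 191, 98.5 and 352 CPM of ERBB4, so that the LPS male alone lay well above it.

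EGFR in fibroblasts had 194, 349, 399.8 and 144 CPM in the same order, from 130, 203, 146 and 34 nuclei. Its log2 ratio was 1.04 between the females and -1.28 between the males. The value of the LPS male rested on 18 UMIs. Of the 108 pairs of a gene and a class, stage or cluster with at least 10 UMIs in every library, 23 had within-sex ratios of opposite sign past 0.25, and these 2 pairs were past 1.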

How the results depend on the processing

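Over the 22 comparisons the count of genes called was 0 with edgeR, 7 with DESeq2, 138 without the filter on low counts, 40 with sex as a replicate block, 2 with doublets removed and 125 to 258 with 1 fetus left out. The count for the 7 genes was 0, 1 under the block and 0 to 1 with 1 fetus left out, which was NRG4 in oligodendrocytes. For oligodendrocytes the count of genes called was 1 with DESeq2, 9 without the filter, 25 under the block, 1 with doublets removed and 10 to 57 with 1 fetus left out. It was 0 in the granule lineage in every alternative. No count under the block shows pairing, since same-sex fetuses are not the same animal. A left-out fetus leaves a lone sample that is assumed to vary like the others.

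Of 425 alternative values of 36 log2 fold changes, 396 kept their direction and side of the threshold, 27 changed sign and 2 became calls, both of NRG4 in oligodendrocytes (2.54 under the block, 3.28 without the LPS female). The sign of NRG2 in oligodendrocytes turned with free RNA subtracted (-0.11) and without their unnamed cluster (-0.18), and that of EGFR there without that cluster (-0.080), an alternative chosen after the data were seen. The other 24 changes came with 1 fetus left out. The ranges were -0.13 to 0.43 for NRG1, -0.023 to 0.55 for NRG2, -0.93 to 0.092 for ERBB2 and -1.06 to 0.56 for ERBB4 in all nuclei. In the granule lineage they were -0.20 to 0.33 for NRG1, -0.047 to 0.53 for NRG2, -0.44 to 0.13 for ERBB2 and -1.27 to 0.50 for ERBB4. In oligodendrocytes they were -0.30 to 0.50 for NRG2, -0.14 to 0.16 for EGFR and -1.25 to 0.45 for ERBB4. The range was -2.23 to 0.70 for NRG1 in Golgi cells, -0.25 to 1.88 for NRG4 and -0.34 to 0.039 for EGFR in Bergmann glia, and -1.003 to 0.38 for ERBB4 in astrocytes. NRG4 ran from 0.52 to 1.73 in the granule lineage. The cause of these changes was not tested. Levels moved by more than 1 SD for NRG3 in astrocytes with free RNA subtracted (74.9 CPM), for EGFR in astrocytes with doublets removed (1089 CPM) or free RNA subtracted (1156 CPM), and for ERBB2 in fibroblasts with at least 1000 genes (27.6 CPM) or free RNA subtracted (36.2 CPM). The class with the highest mean was the same in 53 of 56 comparisons. In the other 3, Purkinje cells replaced Golgi cells for NRG2.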

Other observations

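Classes with too few nuclei for a test held members at high levels. NRG4 in choroid or ependymal cells, the epithelium that makes cerebrospinal fluid and its relatives, had 156, 327, 166 and 606 CPM in the Control female, Control male, LPS female and LPS male, above every class that was compared in the same library. These values rested on 2, 3, 21 and 13 nuclei and on 3, 3, 17 and 32 UMIs. In the same nuclei ERBB4 had 1459.5, 980.4, 2104 and 2464 CPM. Unipolar brush cells, excitatory interneurons of the granular layer, had 3692, 1026, 1855 and 791 CPM of ERBB4 from 21, 8, 9 and 37 nuclei, with both females again above both males. NRG2 had 264, 214, 459 and 341 CPM there.

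NRG4 was also found outside the nuclei. The empty droplets used here were as many barcodes as there were nuclei, from a UMI rank of 3 times the number of nuclei on. In them NRG4 had 9.37, 29.5, 9.64 and 94.8 CPM in the Control female, Control male, LPS female and LPS male. The UMI median of these droplets was 300, 196, 226 and 496.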
